A study of Mus musculus with 696 samples.

Results

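These data describe the first healing of mouse tail skin at 1 week, set against unwounded skin. The comparison takes 347 of the 696 cells of the series: 179 from 2 plates of unwounded skin (0w, with 88 and 91 cells) and 168 from 2 plates taken 1 week after the first wound (1w pw1, with 89 and 79 cells). The cells were chosen by the time point in the labels alone. The mice carried Lrig1-EGFP-ires-CreERT2 and a Rosa26 tdTomato reporter behind a floxed stop cassette, on a mixed CBA and C57BL/6 background. Lrig1 is expressed by stem cells of the upper hair follicle, and the Cre enzyme of this allele is active in those cells only when hydroxytamoxifen is present. Both groups received that agent once on the tail skin, so that Lrig1-expressing cells and all their descendants carried tdTomato. Mice of 1w pw1 were given a 2 mm punch wound through the full skin of the tail. This was at 7 to 9 weeks of age and 1 week after the agent. Mice of 0w were not wounded, and in the scheme of the study 0w is the time of that wound. The 1w pw1 time point is therefore 1 week later in age and in time since the agent. Effects of the wound cannot be told apart from effects of that added time. The sort kept cells with tdTomato. The tissue taken for it was not split by distance, so it held the wound bed as well as follicles away from it. Each cell was sequenced with Smart-seq2, a full-length method in which copies made by PCR cannot be told from separate molecules. By this design a cell here is a descendant of an Lrig1-expressing cell, whatever its position or current type. Other epidermal lineages are by design left out of the sort, but its purity was not tested. The wound bed and the distal follicles cannot be told apart within a plate.

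The epidermis renews itself from a basal layer of keratinocytes that contain Krt5 and Krt14 and rest on hemidesmosomes. Cells that leave this layer switch on Krt1 and Krt10, and later the proteins of the cornified envelope, the crosslinked shell of the dead surface cell. After wounding, keratinocytes near the edge switch on Krt6a, Krt6b, Krt16 and Krt17, and hair follicle stem cells send progeny upward into the new epidermis. In unwounded skin the follicle bulge, a reservoir of slowly dividing stem cells, contains Krt15, Cd34 and Lgr5.

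Total estimated counts were 16631428 and 18652241 on the 0w plates and 18924831 and 19760764 on the 1w pw1 plates, and the median cell held 131604, 129319, 180800 and 256588 counts. The cells were keratinocytes by their markers. At least 3 of the 10 keratinocyte markers had 5 or more reads in 88 of 88, 87 of 91, 89 of 89 and 79 of 79 cells, and at least 3 immune markers did so in 0 cells of any of the 4 plates. The 9 immune markers in the table summed to 25.2 and 3.94 CPM (counts scaled to a common library size by TMM) at 0w and to 4.84 and 4.86 CPM at 1w pw1, and S100a4, which is not confined to immune cells, was the highest of them on every plate. Ptprc, the defining gene of white blood cells, stood at 0.104 and 0.216 CPM against 0.131 and 0.293 CPM. The fibroblast list summed to 70.2 and 49.7 CPM at 0w and to 31.0 and 12.5 CPM at 1w pw1, and 1, 1, 0 and 0 cells held 3 of its markers. One plate stood apart. The 24 sebaceous gland genes, of which 23 were in the table, summed to 8903 CPM on 0w replicate 2 and to 1321, 1153 and 1049 CPM on 0w replicate 1 and the 1w pw1 plates. That plate also had the highest median mitochondrial share, at 30.7% against 22.7%, 17.9% and 23.9%. The part of these differences in the results was not tested. Each time point carries a label letter of its own, shared by its 2 plates, so a batch behind the letter and the time point cannot be told apart. The methods name 2 independent experiments of 4 biological replicates each, but the labels do not tie the plates to them or to separate mice, so the p-values measure the spread between plates, which may be technical.

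Counts were summed over the cells of each plate, and plates were compared with edgeR. Of 13853 genes tested, 73 were called (0.527%), by which is meant a fold change over 2 with an edgeR p under 0.05 after Benjamini-Hochberg adjustment. Of these, 56 were higher at 1w pw1 (0.404%) and 17 were lower (0.123%). With the replicate number as a block, 236 genes were called (1.7%), 143 higher (1.03%) and 93 lower (0.671%), and all 73 were among them. DESeq2 called 723 (5.22%), 354 higher (2.56%) and 369 lower (2.66%), again with all 73. For every one of the 73 genes the 2 plates of one group lay above both plates of the other, which is also so for 45.1% of all genes tested (23% higher and 22.1% lower). The count rested on all 4 plates. A fit that leaves out 1 of them has a lone plate in that group, which is assumed to vary like the plates of the other time points, and it has fewer plates to estimate the spread. Leaving out 0w replicate 1 gave 13 calls, of which 12 were among the 73, and leaving out 0w replicate 2 gave 8, of which 7 were. The same for 1w pw1 replicate 1 gave 22 (21 of the 73), and for 1w pw1 replicate 2 it gave 24 (21 of the 73). Krt6b, Krt6a, Krt16, Sprr1b, Stfa2, Cstdc6 and 2610528A11Rik stayed called without any single plate and under every alternative run. Every other call below was lost without at least 1 of these 4 plates, and the highest edgeR adjusted p over the fits that leave out 1 of the 8 plates is given with the groups.

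**Figure D1:**
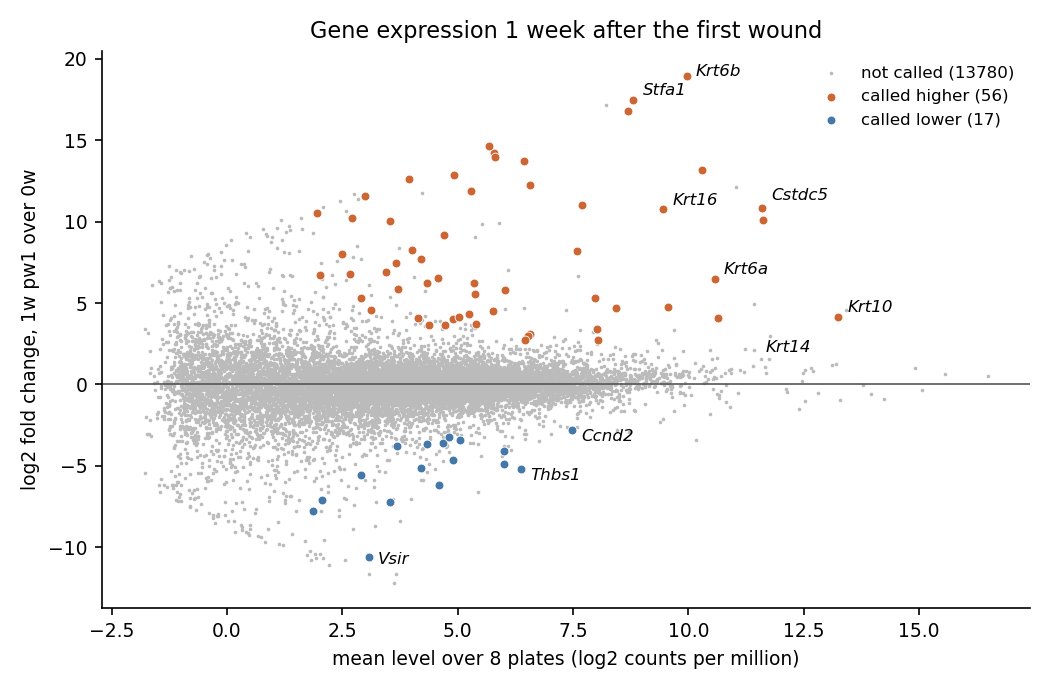
Log2 fold change of 1w pw1 over 0w against the mean level over 8 plates in log2 CPM, for all 13853 genes tested. The 56 genes called higher lie above 0 and the 17 called lower below it, and the fitted values of genes with no read in a group depend on the prior count and are no bound on the change. Krt14, at a log2 fold change of 2.10, was not called in this fit without the replicate block.

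Of the 4 wound keratins, 3 were called higher, with a median log2 fold change of 8.64 over the list. Krt6b (chr15:101676023-101680293 in GRCm38, a type II keratin of wounded epidermis) had 0 reads in all 179 cells at 0w, and 5141 and 2464 CPM on the 1w pw1 plates. Taking the lower of the 2 plates at 1w pw1 against 3 reads over the 0w plates, as for every such bound here, it was at least 31044-fold higher (edgeR adjusted p = 0.00137). Its neighbour Krt6a (chr15:101689928-101694305) stood at 49.9 and 50.7 CPM at 0w and at 5798 and 3230 CPM at 1w pw1, which on the log2 scale is a change of 6.49 ± 0.54 (SE, edgeR adjusted p = 0.00137). Their type I partner Krt16 stood at 0.727 and 1.62 CPM against 2421 and 1776 CPM, a log2 change of 10.80 ± 0.95 (edgeR adjusted p = 0.00153). Each of these 3 genes was low on both 0w plates and high on both 1w pw1 plates. Krt17, a keratin that follicle cells contain in unwounded skin, stood at 962 and 358 CPM at 0w and at 1260 and 1072 CPM at 1w pw1, and did not pass the test (log2 fold change 0.82 ± 0.53, adjusted p = 0.62). Without any single plate the adjusted p of Krt6b, Krt6a and Krt16 reached at most 0.0173, 0.0356 and 0.0344. Reads of Krt6a and Krt6b come from near-identical neighbours, and the way Salmon divided them between the genes could shift the level of each.

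**Figure D2:**
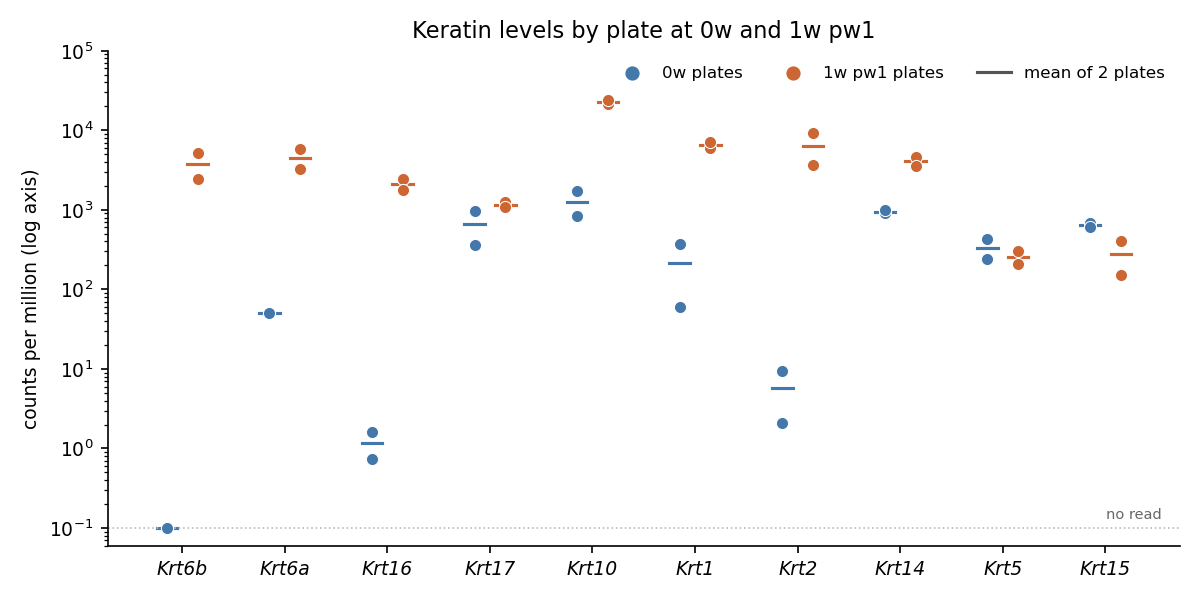
Levels of 10 keratins in CPM on a log axis, with 1 point per plate and a bar at the mean of the 2 plates of a group. Krt6b had no read on either 0w plate, Krt16 stood at 0.727 and 1.62 CPM there, and Krt5 and Krt15 were not higher at 1w pw1.

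Krt6b was carried by a minority of the cells and Krt6a by more. Krt6b had a read in 26 of 89 cells (29.2%, exact 95% binomial interval 20.1% to 39.8%) and 29 of 79 cells (36.7%, 26.1% to 48.3%) at 1w pw1. At 0w it had a read in 0 of 88 and 0 of 91 cells. Taking 3 cells as the limit that a count of 0 allows, this bounds the share at 3.41% and 3.30%, and the exact 95% interval reaches 4.11% and 3.97%. These intervals and limits cover counting error only. To compare cells of unlike depth, each cell was thinned at random to 20000 counts, which left 86 and 81 cells at 0w and 80 and 78 at 1w pw1. At that depth Krt6b had a read in 22 of 80 and 20 of 78 cells of 1w pw1. Krt6a went from 18 of 86 and 15 of 81 cells to 45 of 80 and 45 of 78, and Krt16 from 3 of 86 and 4 of 81 to 35 of 80 and 23 of 78. Within the Krt6b-positive cells the level spanned a wide range, and the 8 cells richest in Krt6b held 90% of its reads on each 1w pw1 plate. The richest cell alone held 41.0% on replicate 1 and 27.8% on replicate 2.

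Other genes were counted in the Krt6b-positive cells and in the 58 Krt6b-negative cells of each 1w pw1 plate. Of the 22 and 20 such cells on the 1w pw1 plates, Krt6a had a read in 21 and 20, Krt16 in 18 and 19, and the stefin gene Cstdc5 in 22 and 19. In the Krt6b-negative cells these 3 genes had a read in 24 and 25, 17 and 4, and 18 and 25. The suprabasal keratin Krt10 was about as frequent in both, with a read in 19 and 17 of the Krt6b-positive cells and in 50 and 51 of the Krt6b-negative cells. Krt14 had a read in 21 and 20 of the Krt6b-positive and in 42 and 41 of the Krt6b-negative cells, Krt5 in 15 and 11 against 14 and 13, and the integrin gene Itga6 in 14 and 10 against 22 and 21. Krt15 had a read in 0 and 1 of the Krt6b-positive cells, and in 13 and 14 of the 58 Krt6b-negative cells of each plate. Lrig1, the gene whose promoter marked the lineage, had a read in 0 and 1 of the Krt6b-positive cells, and in 13 and 17 of the Krt6b-negative cells. Krt2, a keratin of the uppermost living layers, had a read in 3 and 2 of the Krt6b-positive cells and in 13 and 12 of the others. The interleukin gene Il1f9 had a read in 16 and 14 of the Krt6b-positive cells, and in 8 and 13 of the others. Cells of a plate share a library batch and are not replicates, so these counts are a description with no test.

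The stefin A genes stood in a single cluster, chr16:36119946-36455392 in GRCm38. Stefins are inhibitors of cysteine proteases such as cathepsins, and stefin A is built into the cornified envelope. Of 9 genes of the cluster that were tested, 7 were called higher and 0 lower (8 and 0 with the replicate block). Promoter windows from RefSeq are shown for the 6 called members that have one, because their bases bear on how alike the co-varying genes are: each is the 250 bases before the annotated gene start, 5′ to 3′ on the gene's strand, and capitals mark the 2 longest runs that 5 of the windows share, ACTCAGCATTTCC and ACCTTTAAAACC.
Stfa1, chr16:36276898-36277147, plus strand: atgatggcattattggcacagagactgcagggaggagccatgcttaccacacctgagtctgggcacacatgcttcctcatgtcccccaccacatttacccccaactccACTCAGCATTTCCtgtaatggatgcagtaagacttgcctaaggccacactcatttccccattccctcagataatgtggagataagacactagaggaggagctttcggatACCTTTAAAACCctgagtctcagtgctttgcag
Cstdc5, chr16:36367571-36367820, minus strand: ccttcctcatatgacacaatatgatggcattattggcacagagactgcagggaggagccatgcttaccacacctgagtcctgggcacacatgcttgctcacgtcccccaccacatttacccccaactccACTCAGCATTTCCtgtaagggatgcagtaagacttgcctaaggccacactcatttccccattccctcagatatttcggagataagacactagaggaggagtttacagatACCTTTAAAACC
Csta3, chr16:36210153-36210402, plus strand: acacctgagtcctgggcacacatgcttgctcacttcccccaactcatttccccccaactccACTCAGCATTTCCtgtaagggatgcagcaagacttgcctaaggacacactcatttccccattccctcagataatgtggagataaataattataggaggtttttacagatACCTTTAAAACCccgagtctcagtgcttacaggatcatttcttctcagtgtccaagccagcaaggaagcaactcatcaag
Stfa2, chr16:36408364-36408613, minus strand: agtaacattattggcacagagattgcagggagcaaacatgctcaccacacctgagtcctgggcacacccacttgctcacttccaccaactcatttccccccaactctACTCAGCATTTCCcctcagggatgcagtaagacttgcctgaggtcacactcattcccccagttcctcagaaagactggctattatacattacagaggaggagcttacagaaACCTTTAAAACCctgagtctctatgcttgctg
Stfa3, chr16:36455393-36455642, minus strand: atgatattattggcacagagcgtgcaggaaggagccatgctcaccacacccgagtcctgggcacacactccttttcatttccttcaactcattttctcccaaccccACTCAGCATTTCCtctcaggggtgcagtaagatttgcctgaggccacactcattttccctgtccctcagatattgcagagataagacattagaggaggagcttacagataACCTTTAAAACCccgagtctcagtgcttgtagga
Csta2, chr16:36221312-36221561, plus strand: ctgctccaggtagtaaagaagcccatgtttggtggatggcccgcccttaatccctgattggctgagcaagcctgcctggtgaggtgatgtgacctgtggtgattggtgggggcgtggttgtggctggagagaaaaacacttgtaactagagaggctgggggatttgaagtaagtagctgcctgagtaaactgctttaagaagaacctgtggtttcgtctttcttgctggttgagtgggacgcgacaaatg

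The windows of Stfa1, Stfa2, Stfa3, Csta3 and Cstdc5 were 80.8% to 95.7% identical over the 182 to 251 aligned columns of each pair, and Csta2 aligned with none of them over more than 7 columns. Searched on both strands, the run ACTCAGCATTTCC was found in 9 of all 32851 windows of this length (0.027%) and ACCTTTAAAACC in 11 (0.033%). These counts include the stefin windows from which the runs were taken, which hold them by the way the runs were chosen. Of the 8 tested stefin A genes with a window, 6 held each run, so an uncalled member held them too. The motif TGANTCA, the site of AP-1 factors, which reads the same on both strands, was in 0 of the 6 called stefin windows, in 7 of the 48 called higher genes with a window (14.6%), in 1 of 13 called lower (7.69%) and in 676 of 10868 tested genes with one (6.22%). A match is only a match of letters.

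The stefin genes started from unlike levels. Stfa1 had no read on either 0w plate and 1877 and 876 CPM at 1w pw1, at least 11032-fold higher (edgeR adjusted p = 0.0127). Stfa2 also had no read at 0w and stood at 46.3 and 48.4 CPM, at least 583-fold higher (adjusted p = 0.00335). Csta3 had no read at 0w and stood at 338 and 45.1 CPM, so its 1w pw1 plates differed widely, and it was at least 568-fold higher (adjusted p = 0.0216). Cstdc6 had 0.0519 and 0 CPM at 0w and 192 and 68.7 CPM at 1w pw1. Cstdc5 stood at 10.4 and 0.108 CPM at 0w and at 13820 and 5269 CPM at 1w pw1 (log2 fold change 10.83 ± 1.82, adjusted p = 0.0370). Csta2, the call nearest the threshold among the 7, stood at 0.104 and 0 CPM against 24.1 and 7.03 CPM (adjusted p = 0.0465). Stfa3 was the member most present before wounding, at 94.8 and 78.6 CPM at 0w and 3141 and 1647 CPM at 1w pw1 (log2 fold change 4.79 ± 0.72, adjusted p = 0.0236). The 2 uncalled members were also higher on both 1w pw1 plates, as were 23% of all genes tested. Csta1 stood at 11.6 and 0.593 CPM against 910 and 306 CPM (adjusted p = 0.067, and 0.00819 with the replicate block), and Cstdc4 at 1.71 and 1.40 CPM against 22.3 and 5.80 CPM (adjusted p = 0.19). Stefin transcripts resemble each other, and reads may have been divided between them by the quantification. With any 1 plate dropped, the adjusted p reached 0.0356 for Stfa2, 0.0417 for Cstdc6, 0.0781 for Stfa1, 0.107 for Cstdc5, 0.108 for Csta3, 0.160 for Stfa3 and 0.252 for Csta2.

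Several stefins had a read in more cells than Krt6b. At 20000 counts per cell, Cstdc5 had a read in 2 of 86 and 0 of 81 cells at 0w and in 40 of 80 and 44 of 78 at 1w pw1. Stfa3 went from 13 of 86 and 9 of 81 to 46 of 80 and 43 of 78. Stfa1 was in 0 cells at 0w and in 34 of 80 and 28 of 78 at 1w pw1, and 20 and 14 of those cells also had Krt6b. Stfa2 was carried by few cells, 4 of 80 and 8 of 78, and 2 cells held 90% of its reads on 1w pw1 replicate 1. Of the cells without Krt6b, 18 of 58 and 25 of 58 had a read of Cstdc5.

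Clade B serpins, relatives of ovalbumin that inhibit serine and cysteine proteases inside the cell, include a cluster at chr1:106861175-107608978. Of 11 tested there, 5 were called higher and 0 lower (6 and 0 with the replicate block). Serpinb3b stood at 13.9 and 18 CPM at 0w and at 272 and 548 CPM at 1w pw1 (log2 fold change 4.69 ± 0.73, edgeR adjusted p = 0.0270). It was among the changes that most cells carried, with a read in 8 of 86 and 9 of 81 thinned cells at 0w and in 44 of 80 and 56 of 78 at 1w pw1. Serpinb12 stood at 1.66 and 1.46 CPM against 265 and 647 CPM (adjusted p = 0.0164), and was in 2 and 2 cells at 0w and in 26 and 30 at 1w pw1. Serpinb3d had no read at 0w and stood at 86.8 and 120 CPM, at least 1094-fold higher (adjusted p = 0.0178). Serpinb3a had no read at 0w and stood at 49.1 and 198 CPM, at least 618-fold higher, and Serpinb3c stood at 0.104 and 0.0539 CPM against 15.2 and 36.9 CPM. The 4 Serpinb3 genes are close copies. Outside this cluster Serpinb1a and Serpinb6c were called higher with the block (adjusted p = 0.0319 and 0.0328, against 0.054 and 0.057 without it). Serpinb9 stood at 12.9 and 3.13 CPM at 0w and 0 and 0.176 CPM at 1w pw1, and was called lower with the block (adjusted p = 0.0483, against 0.067 without it). Serpinb5, the maspin gene, stood at 777 and 1124 CPM against 4370 and 4263 CPM and was not called (adjusted p = 0.11), though it was with the block (0.0222), and Serpinb8 stood at 91.9 and 40.4 CPM against 73.5 and 68.0 CPM. With 1 plate left out the adjusted p of the 5 called serpins reached 0.101 to 0.168.

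Small proline-rich proteins are precursors that transglutaminases crosslink into the cornified envelope. Of 10 tested in the cluster at chr3:92215835-92500493, 4 were called higher and 0 lower (6 and 0 with the replicate block). Sprr1b stood at 0 and 0.432 CPM at 0w and at 434 and 503 CPM at 1w pw1 (log2 fold change 11.05 ± 1.34, edgeR adjusted p = 0.0127, and at most 0.0488 without any single plate). Sprr2a2 stood at 0.208 and 0.270 CPM against 2342 and 2256 CPM (adjusted p = 0.0127), Sprr2a3 at 0.0519 and 0.0539 CPM against 150 and 430 CPM, and Sprr2h at 0 and 0.0539 CPM against 44.5 and 28.6 CPM. Both 1w pw1 plates lay far above both 0w plates for each of the 4. At 20000 counts Sprr1b was in 0 of 86 and 1 of 81 cells at 0w and in 21 of 80 and 26 of 78 at 1w pw1, and Sprr2a2 in 0 and 0 against 30 and 25. A single cell held 63.2% of the Sprr2a2 reads on 1w pw1 replicate 2. Sprr1a was present before wounding, at 212 and 58.3 CPM, and stood at 1524 and 1264 CPM at 1w pw1 (adjusted p = 0.094, and 0.0244 with the replicate block). Over the fits without 1 plate, the adjusted p reached 0.0881 for Sprr2a2, 0.111 for Sprr2a3 and 0.123 for Sprr2h. The Sprr2a copies are near-identical.

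Of the other proteins and enzymes of the cornified envelope, 17 were tested, of which 1 was called higher and 0 lower, 16 had a log2 fold change above 0, with a median log2 fold change of 0.86, against -0.04 over all 13853 genes. The called member was Casp14, a protease of cornification, at 2.65 and 2.37 CPM at 0w and 35.9 and 49.2 CPM at 1w pw1 (edgeR adjusted p = 0.0370). Lor, the loricrin gene, stood at 18.1 and 0.485 CPM against 2.68 and 21.6 CPM, so its groups overlapped. Ivl, the involucrin gene, stood at 1.97 and 9.60 CPM against 21.8 and 33.6 CPM (adjusted p = 0.26), and Tgm1, the transglutaminase of this shell, at 0.727 and 0.593 CPM against 5.23 and 7.79 CPM (adjusted p = 0.26). In the fits that lack 1 plate the adjusted p of Casp14 reached 0.204.

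Of 22 genes of the layers above the basal one, 7 were called higher and 0 lower, and with the replicate block 12 were called higher and 0 lower. All 22 had a log2 fold change above 0, from 0.08 for Skint5 (adjusted p = 0.996, and a log2 fold change of -0.17 with the block) to 10.13 for Krt2, and the median was 2.58. Krt10 stood at 831 and 1703 CPM at 0w and at 21378 and 24017 CPM at 1w pw1 (log2 fold change 4.16 ± 0.66, edgeR adjusted p = 0.0276). Calm4, a calcium-binding protein of differentiating epidermis, stood at 218 and 210 CPM against 2716 and 4677 CPM (log2 fold change 4.11 ± 0.49, adjusted p = 0.0127). Krt2 stood at 2.08 and 9.39 CPM against 3621 and 9212 CPM (adjusted p = 0.0209). Mt4, a metallothionein of stratified epithelium, stood at 18.5 and 5.34 CPM against 577 and 361 CPM (adjusted p = 0.0241), and Skint6, of a family named for a selector of skin gamma-delta T cells, at 0.415 and 0.971 CPM against 36.4 and 70.0 CPM (adjusted p = 0.0127). Them5 stood at 19.99 and 18.99 CPM against 134 and 194 CPM, and Ptgs1, which encodes a cyclooxygenase, at 1.71 and 5.12 CPM against 83.7 and 54.0 CPM. Krt1, the partner of Krt10, stood at 371 and 59.7 CPM against 5989 and 7177 CPM and was not called (log2 fold change 4.93 ± 0.99, edgeR adjusted p = 0.067), though it was with the block (0.0125), and its 2 plates at 0w lay far apart. When 1 plate was dropped, the adjusted p of the 7 called genes reached 0.0836 for Skint6 at the lowest and 0.213 for Ptgs1 at the highest.

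Calm4 and Krt10 had a read in most cells at 1w pw1. Calm4 had a read in 26 of 86 and 26 of 81 thinned cells at 0w and in 69 of 80 and 65 of 78 at 1w pw1. Krt10 went from 48 of 86 and 39 of 81 to 69 of 80 and 68 of 78. Before thinning, its median level in cells with a read was 273 and 215 CPM at 0w and 5433 and 8095 CPM at 1w pw1. These levels in single cells were scaled to the total counts of each cell, without TMM. Them5 went from 13 and 12 cells to 49 and 50. Krt2 rested on few cells. It was in 16 of 80 and 14 of 78 cells at 1w pw1, and 3 and 4 cells held 90% of its reads on these plates. Krt14 had a read in 41 of 48 and 34 of 39 Krt10-positive cells at 0w and in 53 of 69 and 52 of 68 at 1w pw1. Its share was higher in the Krt10-negative cells of each plate, at 36 of 38 and 40 of 42 at 0w and 10 of 11 and 9 of 10 at 1w pw1. In sums over cells, fewer cells of a type and less RNA per cell cannot be told apart, and the counts of cells are given for that reason.

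Of 16 basal keratins and hemidesmosome genes tested, 0 were called with edgeR, while Krt14 was called higher and Itga3 lower with the replicate block, and the median log2 fold change was -0.70. Krt14 stood at 903 and 999 CPM at 0w and at 4590 and 3587 CPM at 1w pw1 (log2 fold change 2.10 ± 0.43, adjusted p = 0.072, and 0.0225 with the block). Krt5, its partner, stood at 425 and 238 CPM against 300 and 209 CPM (log2 fold change -0.38 ± 0.49, adjusted p = 0.85). Krt15 stood at 686 and 607 CPM against 403 and 150 CPM (log2 fold change -1.23 ± 0.52, adjusted p = 0.39). Itgb4, a subunit of the hemidesmosome integrin, stood at 89.9 and 19.7 CPM against 25.4 and 8.73 CPM, and its partner Itga6 at 242 and 148 CPM against 238 and 67.4 CPM. The shares of cells were lower at 1w pw1 for the keratins of this list. At 20000 counts Krt5 had a read in 63 of 86 and 52 of 81 cells at 0w and in 29 of 80 and 24 of 78 at 1w pw1. Krt15 went from 65 and 52 cells to 13 and 15, and the richest cell held 59.9% of its reads on 1w pw1 replicate 2. Krt14 was in 77 of 86 and 74 of 81 cells at 0w and in 63 of 80 and 61 of 78 at 1w pw1. Its median level in cells with a read, before thinning, was 698 and 512 CPM at 0w and 2771 and 1377 CPM at 1w pw1. These medians were again scaled to the total counts of each cell, without TMM, unlike the plate levels above. Lrig1 itself stood at 36.7 and 24.3 CPM against 17 and 30.3 CPM (log2 fold change -0.37 ± 0.55, adjusted p = 0.88), and was in 27 of 86 and 24 of 81 cells at 0w and in 13 of 80 and 18 of 78 at 1w pw1. The share of cells with Krt5, Krt15 or Krt14 was lower on both 1w pw1 plates than on both 0w plates, and no test was run on the shares. An exact two-sided permutation test of 2 plates against 2 could not have given a p below 1 in 3.

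**Figure D3:**
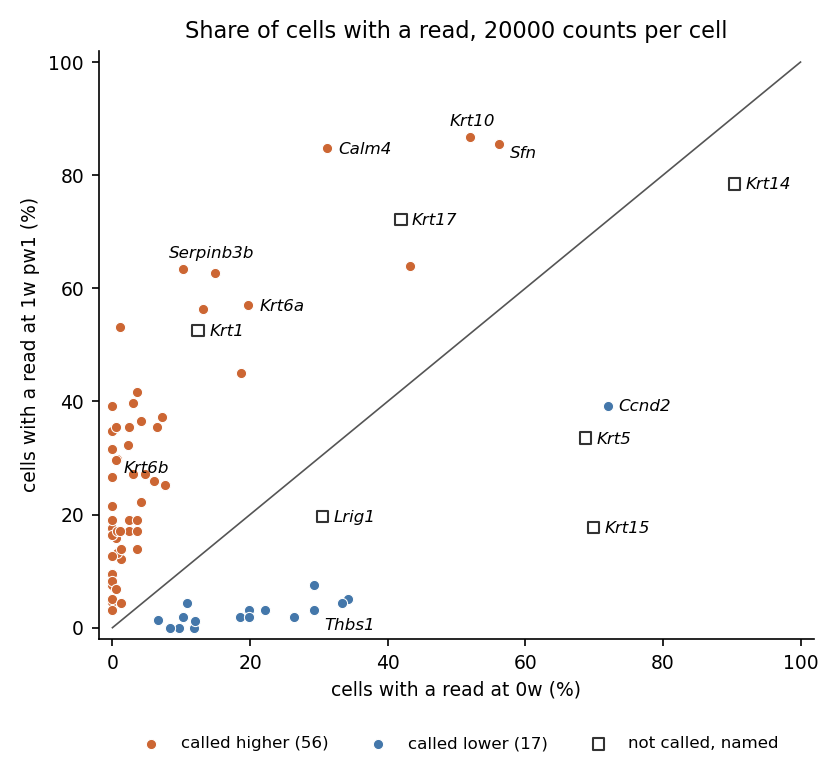
Percent of cells with at least 1 read at 1w pw1 against 0w, each the mean of 2 plates with every cell thinned to 20000 counts, for the 73 called genes and 6 named genes that were not called. Genes called higher lie above the diagonal line of equal shares, many near 0% at 0w, while Krt5, Krt15, Krt14 and Lrig1 lie below it.

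The 17 genes called lower had a read in a median of 19.8% of the thinned cells at 0w and 1.91% at 1w pw1. Thbs1, the thrombospondin 1 gene, stood at 174 and 156 CPM at 0w and at 6.08 and 2.99 CPM at 1w pw1 (log2 fold change -5.18 ± 0.65, edgeR adjusted p = 0.0127). Also called lower were Itga2, a collagen receptor subunit, at 66.0 and 47.1 CPM against 2.81 and 1.64 CPM (adjusted p = 0.0164), Matn2, the matrilin 2 gene, at 89.0 and 143 CPM against 5.43 and 8.38 CPM (adjusted p = 0.0164), Lama4, a laminin chain, at 19.3 and 29.6 CPM against 0.131 and 0.176 CPM (adjusted p = 0.0171), and Prelp, a matrix proteoglycan, at 7.63 and 9.06 CPM against 0 and 0.0586 CPM (adjusted p = 0.0453). Of the list of migration, matrix and protease genes, 28 were tested, of which Thbs1 and Itga2 were called lower and 0 higher (2 lower and 1 higher, Plau, with the replicate block), 16 had a log2 fold change above 0 and the median was 0.66. Matn2, Lama4 and Prelp are not in that list. Postn, the periostin gene of that list, stood at 1221 and 430 CPM against 94.2 and 127 CPM and was not called (adjusted p = 0.10). Mmp3, Mmp9 and Mmp13 had no read at 0w or on 1w pw1 replicate 2, and stood at 37.2, 40.5 and 50.1 CPM on 1w pw1 replicate 1. With 1 plate left out the adjusted p reached 0.108 for Thbs1, 0.162 for Itga2, 0.192 for Matn2, 0.177 for Lama4 and 0.296 for Prelp.

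Vsir, a checkpoint receptor of the immunoglobulin family, stood at 11.7 and 11.7 CPM at 0w and had no read in any of the 168 cells of 1w pw1, so the lower of its 0w plates was at least 126-fold above 3 reads over the 1w pw1 plates (edgeR adjusted p = 0.0127). It had a read in 28 of 88 and 15 of 91 cells at 0w, and in 0 of 89 and 0 of 79 cells at 1w pw1, which by the same limit of 3 cells allow shares of up to 3.37% and 3.80%. Ackr4, a receptor that scavenges chemokines, stood at 36.7 and 33.8 CPM against 2.68 and 2.93 CPM (adjusted p = 0.0278), and 94.0% of what remained on 1w pw1 replicate 2 came from 1 cell. Kitl, the ligand of the receptor Kit on melanocytes, stood at 39.0 and 52.9 CPM against 3.86 and 3.75 CPM (adjusted p = 0.0295). Oxtr, the oxytocin receptor gene, stood at 65.3 and 47.4 CPM against 0.850 and 0.703 CPM. Ccnd2, the cyclin D2 gene, was the most widely present of the 17, at 388 and 288 CPM against 51.0 and 47.8 CPM (log2 fold change -2.78 ± 0.46, adjusted p = 0.0357). It went from 59 of 86 and 61 of 81 thinned cells to 32 of 80 and 30 of 78. The summed melanocyte markers were 28.8 and 31.7 CPM at 0w and 20.3 and 16.8 CPM at 1w pw1. Over the fits without 1 plate, the adjusted p reached 0.0747 for Vsir, 0.272 for Ackr4, 0.262 for Kitl, 0.331 for Oxtr and 0.310 for Ccnd2.

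The remaining genes called lower were mixed in role. Ctnnal1, which encodes a relative of alpha-catenin, stood at 74.3 and 46.8 CPM against 7.12 and 4.34 CPM, and went from 32 of 86 and 24 of 81 thinned cells to 4 of 80 and 3 of 78. Adh1, an alcohol dehydrogenase, stood at 73.6 and 222 CPM against 3.53 and 6.44 CPM, and went from 17 and 20 cells to 2 and 3. Rev1, a polymerase that copies past damaged bases, stood at 64.8 and 38.8 CPM against 5.36 and 5.74 CPM, and Fancm, a DNA helicase of crosslink repair, at 26.3 and 34.2 CPM against 2.61 and 1.82 CPM. Cavin2 stood at 3.69 and 15.3 CPM against 0.0654 and 0.0586 CPM, and Cep85l at 31.7 and 15.9 CPM against 0.654 and 0.352 CPM. Dclk1 stood at 22.7 and 39.8 CPM against 1.57 and 0.234 CPM, and its call (edgeR adjusted p = 0.0461) was lost without any one of the 8 plates (at most 0.217). In the fits that lack 1 plate the adjusted p of the others reached 0.226 to 0.341.

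Some of the genes called lower were often found in the same cells at 0w, and others were not. Of the 28 and 21 thinned cells with Thbs1, 26 and 19 had Krt15, against 39 of 58 and 33 of 60 cells without Thbs1. Matn2 was in 15 and 13 of the Thbs1-positive cells and in 12 of 58 and 17 of 60 of the others, and Itga2 in 10 and 9 against 5 of 58 and 7 of 60. Krt10 was in 11 and 7 of the Thbs1-positive cells and in 37 of 58 and 32 of 60 of the others. Ackr4 was in 7 and 8 of the Thbs1-positive cells against 16 of 58 and 13 of 60, and Ccnd2 in 21 and 16 against 38 of 58 and 45 of 60. Adh1 was in 12 of 16 and 12 of 17 Oxtr-positive cells, and in 5 of 70 and 8 of 64 cells without Oxtr. Thbs1 was in 8 of 16 and 6 of 17 Oxtr-positive cells, and in 20 of 70 and 15 of 64 of the others. Krt14 was in all 16 and 17 Oxtr-positive cells and in 61 of 70 and 57 of 64 of the others.

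**Figure D4:**
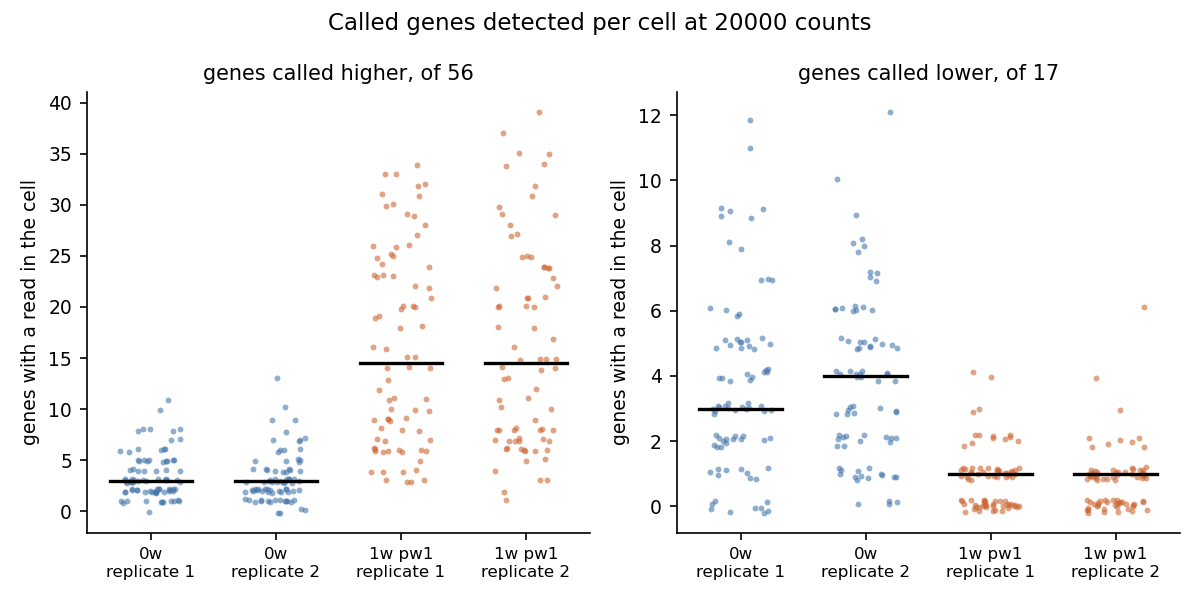
Number of the called genes with a read in each cell thinned to 20000 counts, by plate, with 1 point per cell (spread at random around its whole number) and a bar at the median. The medians for genes called higher are 3 and 3 at 0w and 14.5 and 14.5 at 1w pw1, and those for genes called lower are 3 and 4 at 0w and 1 and 1 at 1w pw1.

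Counting genes per cell showed how widely the change was spread. At least 10 of the 56 higher genes had a read in 2 of 86 and 2 of 81 thinned cells at 0w, and in 51 of 80 and 49 of 78 cells at 1w pw1. At least 20 had a read in 0 and 0 cells at 0w and in 32 and 31 at 1w pw1. At least 3 of the 17 lower genes had a read in 54 and 52 cells at 0w and in 4 and 3 at 1w pw1. These genes were chosen by this same contrast, so the counts describe how many cells carry it and support nothing further. Per gene, the median share of cells with a read went from 1.20% to 23.8% for the higher genes and from 19.8% to 1.91% for the lower ones. A change in the plate sum could still rest on few cells. For 13 of the 56 higher genes a single cell held over 50% of the reads of a 1w pw1 plate, and for 14 at most 5 cells held 90%. For 6 higher genes over 20 cells were needed on both 1w pw1 plates. Wfdc17, of the whey acidic protein family, rested mostly on single cells. It had no read at 0w and stood at 229 and 1513 CPM at 1w pw1 (edgeR adjusted p = 0.0309), and 1 cell held 98.8% of its reads on replicate 2. Its relative Wfdc18 stood at 25.0 and 87.9 CPM, and 1 cell held 92.3% on replicate 2. When 1 plate was dropped, the adjusted p reached 0.129 for Wfdc17 and 0.0822 for Wfdc18.

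Further called genes were the following. Sfn, which encodes 14-3-3 sigma, an epithelial adaptor protein, stood at 59 and 62.4 CPM at 0w and at 470 and 353 CPM at 1w pw1 (edgeR adjusted p = 0.0355), and went from 53 of 86 and 41 of 81 thinned cells to 66 of 80 and 69 of 78. Dsc2, a desmosomal cadherin, stood at 2.91 and 6.42 CPM against 122 and 87 CPM, and it was the called member among 21 genes of desmosomes and cell junctions, of which 1 was called higher and 0 lower (3 higher and 1 lower with the replicate block). A single cell held 98.2% of its reads on 0w replicate 1. Skint2 stood at 16.6 and 15.9 CPM against 116 and 137 CPM. Ttll7, a tubulin-modifying enzyme, stood at 3.43 and 0.701 CPM against 134 and 96.9 CPM, and went from 3 and 2 cells to 36 and 27. Clec2e, a C-type lectin-like gene, and Tmem117 had no read at 0w and stood at 27.6 and 19.4 CPM and at 7.52 and 10.3 CPM. Nat8l, an acetyltransferase, stood at 0.104 and 0.27 CPM against 33 and 14.2 CPM. The edgeR adjusted p with 1 plate dropped reached 0.239 for Sfn, 0.147 for Dsc2, 0.216 for Skint2, 0.0781 for Ttll7 and for Clec2e, 0.0881 for Tmem117 and 0.111 for Nat8l.

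Of 16 tested genes of the interleukin-1 family and keratinocyte cytokines, 1 was called higher and 0 lower, and with the replicate block 2 were called higher and 1 lower. The call in both fits was Il1f9, the gene of interleukin-36 gamma, an alarm signal of keratinocytes, at 1.82 and 0.647 CPM at 0w and 105 and 84.9 CPM at 1w pw1 (log2 fold change 6.26 ± 0.80, edgeR adjusted p = 0.0128, and at most 0.0931 without a single plate). It was in 4 of 86 and 0 of 81 thinned cells at 0w and in 24 of 80 and 27 of 78 at 1w pw1. Il1f8, of the same family, stood at 0 and 0.647 CPM against 40.3 and 23.9 CPM (adjusted p = 0.081, and 0.0318 with the block). Cxcl14, a chemokine of that list, was the one lower with the block (adjusted p = 0.0469, against 0.17 without it). Of 13 genes of the epidermal growth factor family, 0 were called with edgeR and 1 higher with the replicate block, and Epgn, which encodes epigen, a ligand of the receptor Egfr, stood at 0 and 0.216 CPM against 45 and 29.5 CPM (adjusted p = 0.11, and 0.0319 with the block). Of 14 alarmins and antimicrobial proteins, Wfdc17 and Wfdc18 were called higher and 0 were called lower, and with the block 3 were called higher and 0 lower. S100a8 and S100a9, the subunits of calprotectin, had high and uneven levels at 1w pw1. S100a8 stood at 0.519 and 2.86 CPM at 0w and at 12200 and 2635 CPM at 1w pw1 (adjusted p = 0.095), and S100a9 had no read at 0w and stood at 1970 and 276 CPM (adjusted p = 0.057, and 0.0354 with the block).

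**Figure D5:**
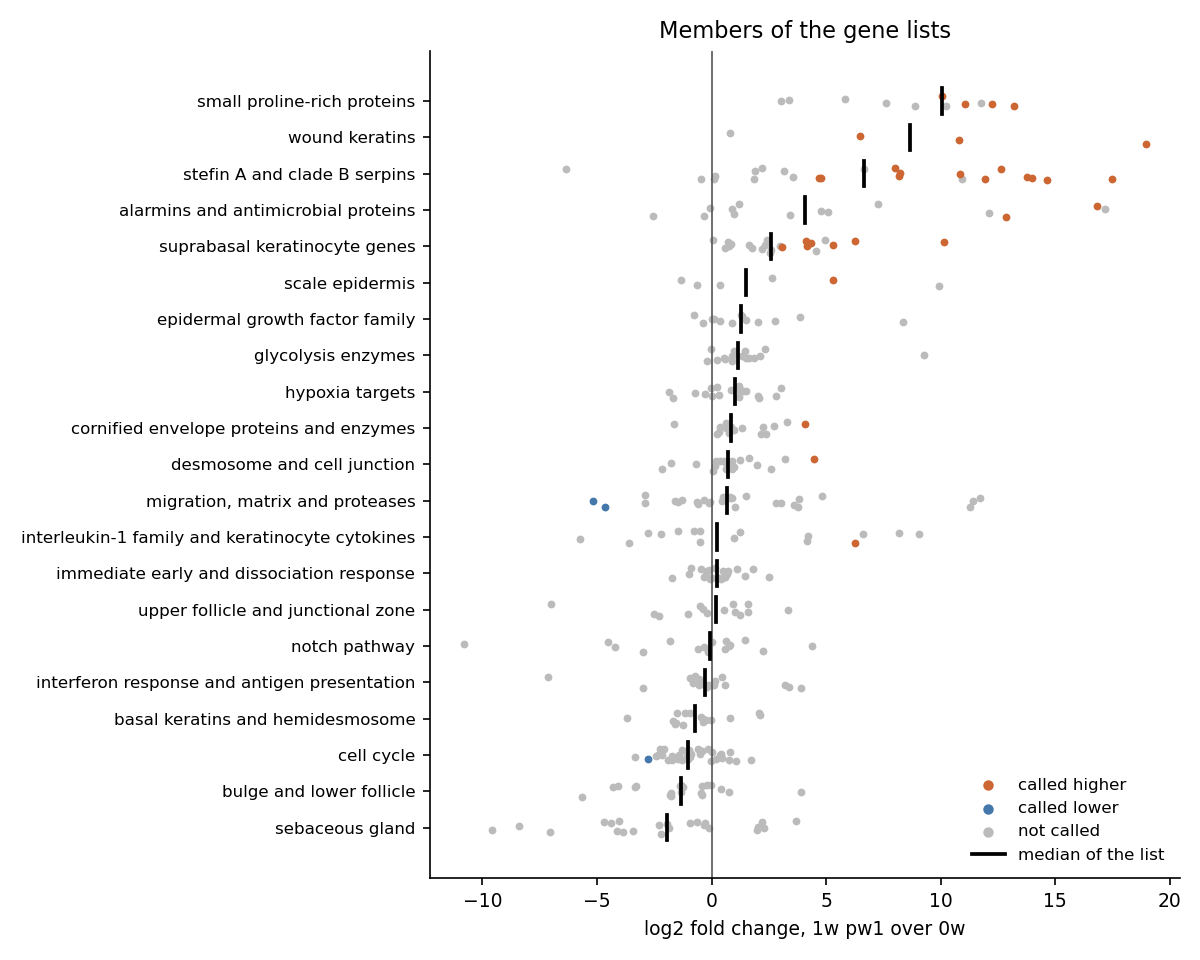
Log2 fold change of each tested member of 21 gene lists, with a bar at the median of each list. The small proline-rich, wound keratin and stefin and serpin lists lie farthest to the right, and the bulge, cell cycle and sebaceous lists have medians below 0.

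The edgeR counts of the remaining lists stand beside 0.404% called higher and 0.123% called lower over all genes. At such shares lists of this size would mostly hold 0 calls. The counts with the replicate block stand beside 1.03% called higher and 0.671% called lower over all genes. Of 20 bulge and lower follicle genes tested, 0 were called with edgeR and 3 lower with the replicate block, and 17 had a log2 fold change below 0, with a median of -1.32. Lgr5 stood at 81.8 and 66.9 CPM at 0w and at 5.43 and 9.67 CPM at 1w pw1 (adjusted p = 0.054, and 0.0212 with the block), and Ptn, the pleiotrophin gene, at 148 and 195 CPM against 11.8 and 22.2 CPM (adjusted p = 0.056, and 0.00819 with the block). The summed level of the list was 811 and 867 CPM at 0w and 321 and 338 CPM at 1w pw1. Of 35 cell cycle genes, 1 was called lower (Ccnd2, 2.86% of the list) and 0 higher, 26 had a log2 fold change below 0 and the median was -1.03. Mki67, a marker of dividing cells, stood at 173 and 158 CPM against 26.3 and 48.6 CPM (adjusted p = 0.25). Of 23 sebaceous genes, 0 were called with edgeR and 1 in each direction with the block, with a median of -1.95, and the high level of 0w replicate 2 given above enters each of these values. Of 16 glycolysis enzymes, 0 were called with edgeR and 3 higher with the block, 14 had a log2 fold change above 0, and the summed level was 980 and 986 CPM at 0w and 3017 and 2720 CPM at 1w pw1. Eno1, an enolase, stood at 62.4 and 36.7 CPM against 305 and 198 CPM (adjusted p = 0.083, and 0.0388 with the block), and Ldha, lactate dehydrogenase A, at 149 and 292 CPM against 671 and 940 CPM (adjusted p = 0.24, and 0.0319 with the block). Of 22 immediate early and dissociation response genes, 0 were called with edgeR and 1 higher with the block, and the median was 0.22. Of 20 interferon and antigen presentation genes, 0 were called with edgeR and 1 higher with the block, and the median was -0.26. Of 14 upper follicle genes 0 were called with edgeR and 1 higher and 2 lower with the block, of 16 Notch pathway genes 0 and again 1 higher and 2 lower, and of 18 hypoxia targets 0 and 1 higher. Over all genes 1587 had an unadjusted p below 0.05.

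The levels at the later times are given side by side with no comparison, since comparisons with them would share the 0w or the 1w pw1 plates. Krt6b stood at 0.216 and 0.0652 CPM 8 weeks after the first wound (8w pw1) and at 92.7 and 299 CPM 1 week after a second wound (1w pw2). Krt6a stood at 334 and 354 CPM at 8w pw1 and at 1070 and 1259 CPM at 1w pw2. Krt16 stood at 42 and 36.1 CPM and then at 276 and 1037 CPM. Stfa1 stood at 83.9 and 5.48 CPM and then at 285 and 464 CPM. Among the genes called lower, Thbs1 stood at 138 and 99.9 CPM at 8w pw1 and at 60.6 and 28.1 CPM at 1w pw2, and Vsir at 25.5 and 17.2 CPM and then at 0.420 and 0.216 CPM.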

How the data were processed

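The deposited values are estimated counts (expected counts) for each gene in each cell, which the authors made by running Salmon 0.13.1 on the Ensembl 101 transcriptome of GRCm38. How transcripts were summed to genes was not given in the sources used here. Values were not normalised, and not all were whole. The authors had removed cells with fewer than 1000 genes or over 50% mitochondrial counts. All 15652 genes named a gene. No doublet caller was run, since cells were sorted singly into wells.

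Counts were summed per plate and rounded to whole numbers. They were tested with edgeR 4.0.16 (R 4.3.3): TMM scaling, filterByExpr at its defaults, and a quasi-likelihood F-test over all 8 plates with time point as the only term (4 residual degrees of freedom, biological coefficient of variation 0.61), adjusted after Benjamini and Hochberg over 13853 genes. The study itself tested single cells. CPM of plates are TMM-scaled, while the median CPM in cells with a read are scaled to the total counts of each cell. Standard errors are on the log2 scale. A gene without reads in a group was set against 3 reads over that group. Cells were thinned without replacement to 20000 counts, and shallower cells were left out. The code was tested on simulated counts.

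The genes named were the 20 called higher with the smallest p and all called lower, each with a read in at least 10 cells and no predicted model or pseudogene, all called genes in a list, and 12 fixed genes. Uncalled list members, Skint2, the genes of the last section except Rbp2 and Tdh, and 2610528A11Rik were named after their values were seen. The members and lists were chosen with earlier results of these data known. Coordinates and promoters come from RefSeq on GRCm38.p6. Of the 73 called genes, 61 had a promoter window.

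Deviations from the group means correlated between plates of the same replicate number by 0.207 to 0.307 in every pair of time points (10286 genes). The replicate numbers may therefore pair the plates, but the labels do not say so. Replicate 2 also had the larger total counts at every time point, and the source of the correlation was not tested. The main fit does not use this pairing. The blocked fit is given beside a count of calls that it moves by over 1.5 times or a call that it changes, and beside some smaller moves. Alternatives were DESeq2 1.42.0, other scalings, gene and cell filters and cell weights, only these 4 plates, the block, and each plate left out. Leaving out mitochondrial genes was added after seeing the data.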

Additional observations from a re-analysis of the deposited data

How the results depend on the processing

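The 73 calls (56 higher, 17 lower) became 723 (354 and 369) with DESeq2, 236 (143 and 93) with the replicate block, which pairs plates of the same number, 126 (81 and 45) with only the 4 plates compared and 24 (22 and 2) with a stricter filter on cells (2000 genes or more, mitochondrial counts of 20% or less) that left 37, 9, 43 and 31 cells. Requiring at least 100 counts on 2 plates gave 26 lower genes. Leaving out 1 of the 8 plates gave 8 to 93 calls, 8 to 67 higher and 0 to 30 lower. Of the 73 genes, 73 remained with DESeq2 and with the block, 71 with 4 plates and 19 with the stricter cells. Giving each cell the same weight in its plate left 55 calls, 43 of them among the 73. Of the genes named by rule, the block changed the call of Krt1 and Krt14, which passed the threshold with it and with DESeq2. Krt1 also passed with each cell weighted equally, with 4 plates and without either 8w pw1 plate. Among the named genes 942 values kept their direction and side of the threshold, 243 fell short of it, 8 passed it and 4 changed sign, and none of the 4 was of a called gene: Krt17 at -0.33 with the stricter cells, Krt5, which ranged from -0.76 to 0.06 when 1 plate was left out, and the log2 fold change of Itga6, which ranged from -1.55 to 0.29 (0.06 and 0.01 without 0w replicate 1, 0.29 without 1w pw1 replicate 2). Of 512 list medians 88 moved beyond the spread, and the Merkel cell list had no gene left under the stricter count filter. Of 96 shares of cells 28 moved outside their interval with 5 reads as the minimum or thinning to 50000 counts. The causes were not tested. Sums rest on 79 to 91 cells a plate, so a gene in few cells cannot be measured well.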

Other observations

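The called genes described here lie outside the lists. Rbp2 and Tdh were named by the rule of the 20 called higher with the smallest p. The others were singled out after their values were seen. Ptges, a prostaglandin E synthase, stood at 4.88 and 2.59 CPM at 0w and at 43.9 and 50.9 CPM at 1w pw1 (edgeR adjusted p = 0.0387, and up to 0.231 without a single plate), and went from 10 of 86 and 3 of 81 thinned cells to 21 of 80 and 19 of 78. Pla2g4f, a phospholipase A2, stood at 0.104 and 0.0539 CPM against 8.56 and 9.73 CPM (adjusted p = 0.0370, up to 0.204), and was in 0 thinned cells at 0w and in 7 and 6 at 1w pw1. Ptgs2, the other cyclooxygenase gene, stood at 5.97 and 3.67 CPM against 0.261 and 0.996 CPM and was not called (log2 fold change -2.92, adjusted p = 0.47). Rbp2, a retinol-binding protein, stood at 0.779 and 0.539 CPM against 76.7 and 49.3 CPM (adjusted p = 0.0135, up to 0.103), and was in 1 and 0 thinned cells at 0w and in 26 of 80 and 21 of 78 at 1w pw1. Lrat, which esterifies retinol, stood at 0 and 0.324 CPM against 27.8 and 31.6 CPM (adjusted p = 0.0434, up to 0.162), and was in 0 and 1 cells at 0w and in 10 and 17 at 1w pw1.

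Among the 7 calls kept in every setting, 2610528A11Rik is listed by RefSeq with the synonym Gpr15l, the name of a secreted ligand of the receptor Gpr15. It had no read in the 179 cells at 0w, stood at 169 and 117 CPM at 1w pw1 (at least 1468-fold higher, edgeR adjusted p = 0.00137, and up to 0.0173 without a single plate), and had a read in 32 of 89 and 32 of 79 cells there. At 8w pw1 it stood at 3.67 and 3.0 CPM, and at 1w pw2 at 82.1 and 68.5 CPM. Tdh, which encodes threonine dehydrogenase, stood at 0.208 and 0 CPM at 0w and at 47.6 and 80.8 CPM at 1w pw1 (adjusted p = 0.0164, up to 0.0943), and went from 1 of 86 and 0 of 81 thinned cells to 26 of 80 and 30 of 78. Pecam1, the gene that made up nearly all of the summed endothelial and mural markers, stood at 473 and 873 CPM at 0w and at 197 and 109 CPM at 1w pw1 (adjusted p = 0.22), while at least 3 markers of that list with 5 reads were found in 0 cells of the 4 plates.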
